A study of Saccharomyces cerevisiae with 14 samples.

Results

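The effect of metformin on transcript levels was compared between exponential and stationary cultures of the budding yeast Saccharomyces cerevisiae. Metformin is a biguanide drug that lowers blood glucose in type 2 diabetes. All 14 libraries of the series were used, and all 6470 gene features of the count table entered, of which 6097 passed the filter on low counts and were tested. The quantity of interest is the interaction, the log2 effect of metformin in stationary cultures minus the log2 effect in exponential cultures. A positive value means that transcripts gained more, or lost less, with the drug in stationary cultures.

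The 4 groups were exponential cultures with 0 mM (n = 4) or 50 mM metformin (n = 4) and stationary cultures with 0 mM (n = 3) or 50 mM (n = 3). The series text places the sampling in mid exponential and late stationary phase. Cells of all groups carried the same haploid MATa genotype. It has his3D1, ura3D0 and lyp1D, the insertions his3D::kanMX4 and can1D::STE2pr-SpHIS5, the fusion locus PDC1-RFP-CaURA3MX4, and LEU2. A colony was grown for 24 h in 10 mL of synthetic complete medium (pH 4, 30 °C, shaking at 200 rpm). Main cultures of 50 mL began at an optical density of 0.05, and metformin was present from that dilution on. The drug was therefore present through growth in the stationary groups too, and time in the drug and phase cannot be told apart. RNA was depleted of ribosomal RNA and sequenced from directional libraries. The labels give a single batch for all libraries and do not say that replicates were separate cultures. The p-values therefore rest on a spread between libraries that may be technical.

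Gene counts summed to 43897221 to 59443572 per library. Summed markers of stationary phase lay at 139 to 441 CPM (counts divided by the scaled size of the library) in exponential libraries and at 14672 to 24326 CPM in stationary ones, so the labelled phases were seen in the data. Transcripts specific to MATa cells were read in every library, at summed levels of 1010 to 1337 CPM in exponential and 135 to 219 CPM in stationary cultures. The 4 MATalpha-specific markers were also read in every library, at 16.6 to 19.9 and 38.0 to 47.0 CPM. So were the 5 markers of diploid or sporulating cells, at 16.2 to 22.6 and 95.7 to 118 CPM. The presence of reads alone thus does not tell the mating type. The altered loci gave 0 counts for URA3 in all libraries, 0 to 18 for HIS3 and 0 to 50 for LYP1, while CAN1, labelled as deleted, had 1334 to 1877 counts in exponential libraries. The exponential libraries numbered 3, with and without metformin, stood apart from the other 6 on the first principal component of that phase (17.0 and 16.8 against -15 to 1.11). Values without both are given for the leading genes and the main lists. The stationary libraries numbered 3 also stood apart on the first component of their phase (11.4 and 10.6 against -9.32 to 1.74). No fit left out both of these stationary libraries. These are bulk cultures and relative levels, so fewer cells with a transcript and less of it per cell cannot be told apart.

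Thioredoxin reductase and glutathione peroxidases form part of the machinery that removes peroxides. Thioredoxin reductase passes electrons from NADPH to thioredoxin, thioredoxin in turn reduces peroxiredoxins, and the transcription factor Yap1 raises many of these genes under oxidative stress. Iron uptake is governed by Aft1 and Aft2, which switch on cell wall siderophore-binding proteins (FIT), siderophore transporters (ARN) and ferric reductases (FRE) when mitochondrial iron-sulfur cluster synthesis signals a shortage.

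The metformin effect differed between phases past the threshold for TRR1 (YDR353W), the gene of cytosolic thioredoxin reductase, and for no other gene. With edgeR's quasi-likelihood test and Benjamini-Hochberg adjustment over all 6097 genes, this 1 call is 0.0164% of the genes tested. Before adjustment 343 genes had a p under 0.05, 5.63% of those tested, with 185 positive and 158 negative. About 305 would be expected with no change in any gene. The same cut gave 117 genes for the exponential and 506 for the stationary effect. Among the 10 lowest p-values were 5 iron uptake genes with negative interactions. These 5 genes, FIT2, FIT3, FRE2, FRE5 and ARN2, had metformin effects of 0.82 to 1.71 in exponential and -0.61 to -0.01 in stationary cultures. GPX2, a peroxide defence gene like TRR1, had effects of -0.12 and 1.34. The interactions of these 6 genes did not pass the adjusted test.

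In exponential cultures without metformin TRR1 stood at 278, 275, 308 and 279 CPM. With metformin in the same phase it stood at 280, 273, 276 and 264 CPM. In stationary cultures it was 34.7, 35.3 and 39.4 CPM without metformin and 84.4, 60.2 and 82.1 CPM with it. The groups overlapped in the exponential phase and were apart in the stationary phase, where every library with metformin lay above every library without. The log2 effect was -0.06 (SE 0.10) in exponential cultures and 1.05 (SE 0.11) in stationary cultures, the latter with an adjusted p of 0.00154 by the same test. Their difference was 1.11 (SE 0.15, 95% interval 0.80 to 1.43, adjusted p = 0.0180, n = 4 and 4 against 3 and 3). TRR1 fell between phases with and without the drug, and the stationary level was 0.128 of the exponential level without metformin and 0.276 of it with metformin. In CPM, the metformin difference was -12.0 in exponential and 39.1 in stationary cultures.

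The call for TRR1 was lost without any single one of 9 libraries, although the difference stayed between 1.03 and 1.26 whichever library was left out and the adjusted p reached at most 0.113. These 9 were exponential without metformin 1, 2, 3 and 4, exponential with metformin 2 and 4, stationary without metformin 1 and 2 and stationary with metformin 1. Without both exponential libraries numbered 3 the difference was 1.07 with an adjusted p of 0.0804, and with plain library totals in place of TMM it was 0.92 with an adjusted p of 0.0971.

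**Figure D1:**
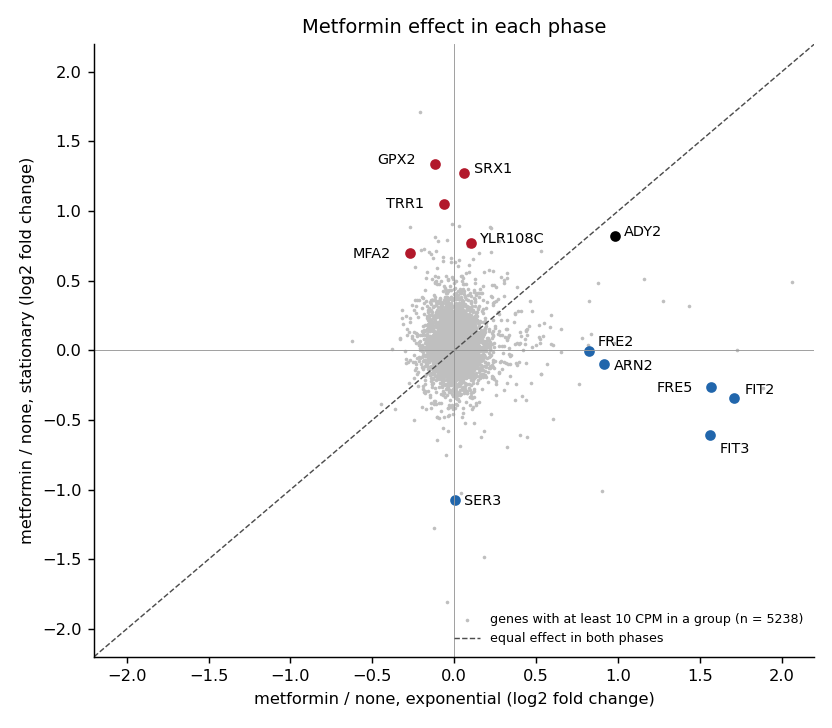
Each grey point is a gene with at least 10 CPM in a group, placed by its log2 metformin effect in exponential cultures (x) and stationary cultures (y), and the dashed line marks equal effects. TRR1, GPX2, SRX1 and YLR108C sit above the line near an x of 0, and ADY2 lies close to the line at 0.98 and 0.82. The FIT, FRE and ARN2 points sit below the line at a y under 0, with FIT3 at -0.61, FIT2 at -0.34 and FRE5 at -0.26.

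Across genes the estimated metformin effects of the phases showed little likeness. They share no library. Over the 5238 genes with at least 10 CPM in a group the correlation was r = 0.0057 and 51.3% of genes had the same sign. Over all 6097 genes r was -0.36, with 49.9% of the same sign, so the negative value came with the genes of low counts. Genes within a library share its depth and scaling and are not independent replicates. The median size of the effect was 0.0574 on the log2 scale in exponential and 0.0977 in stationary cultures, and that of the interaction was 0.12. The median SE of the effect was larger, at 0.108 in exponential and 0.127 in stationary cultures. A correlation near 0 therefore cannot tell unlike effects from effects too small to measure. The 95% interval of the interaction, before adjustment, reached 0.36 to either side for the median gene. Smaller differences were thus not detectable for most genes at this replication in the fit without a block. The adjusted test asked for more, and ERP3, at 0.53, did not pass it (adjusted p = 0.114, edgeR). Differences above 0.36 can therefore also have been missed. Of the 5238 genes with at least 10 CPM, 25 had an interaction above 1 or below -1.

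GPX2, a glutathione peroxidase gene, stood at 62.4, 54.5, 72.0 and 61.8 CPM without and 56.6, 57.6, 65.5 and 51.6 CPM with metformin in exponential cultures. The stationary values were 9.41, 11.1 and 16.2 CPM without and 39.0, 22.4 and 31.4 CPM with metformin. The exponential groups overlapped and the stationary groups did not. The stationary effect passed the threshold at 1.34 (SE 0.21, adjusted p = 0.0363 by edgeR), and the difference between phases, 1.46 (SE 0.27, 95% interval 0.87 to 2.04), did not, with an adjusted p of 0.107. It was 1.26 to 1.71 when each library was left out and passed in 1 of these 14 fits, without stationary library 3 of the untreated group (1.71, adjusted p = 0.0125), while the adjusted p reached 0.471 in the others. Without both exponential libraries numbered 3 it was 1.44 with an adjusted p of 0.209.

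The stretch from 300 to 101 bases before the start codon is shown for TRR1 and GPX2, the peroxide defence genes whose stationary effects passed the threshold. Capitals mark TTACTAA or TTAGTAA, the only form of the Yap1 site that was searched. Sequences and coordinates are RefSeq's R64 assembly, read in the direction of the gene.
TRR1 (chrIV:1182999-1183198, plus strand): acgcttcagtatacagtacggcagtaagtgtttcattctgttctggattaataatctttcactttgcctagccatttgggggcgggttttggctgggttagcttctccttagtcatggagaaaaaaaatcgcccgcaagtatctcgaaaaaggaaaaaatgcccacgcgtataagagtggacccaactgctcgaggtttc
GPX2 (chrII:707228-707427, plus strand): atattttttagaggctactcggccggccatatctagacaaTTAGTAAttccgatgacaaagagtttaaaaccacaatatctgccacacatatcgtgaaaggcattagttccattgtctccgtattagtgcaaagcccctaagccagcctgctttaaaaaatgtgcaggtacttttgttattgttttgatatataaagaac
Within the 500 bases before the start codon GPX2 held these letters at 260 and 417 bases, and TRR1 held none. YLR108C, which also passed in stationary cultures, held them at 169 bases, and the sulfiredoxin gene SRX1 at 301 bases. On either strand these letters occurred in 707 of 5995 such windows (11.8%). They occurred in 18 of the 35 windows of the peroxide defence list (51.4%), a list in which Yap1 raises many genes. A match is only a run of letters, and no match says only that these letters are not in this window. Other forms of the Yap1 site were not searched or marked, so TRR1 may hold such a form.

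SRX1, the gene of sulfiredoxin, which restores overoxidised peroxiredoxin, stood at 10.2, 10.1 and 12.7 CPM without and 33.0, 19.1 and 27.6 CPM with metformin in stationary cultures. In exponential cultures it was 1.78, 2.60, 1.66 and 2.97 CPM without and 3.30, 2.07, 1.97 and 2.04 CPM with it. The groups were apart in the stationary phase and overlapped in the exponential phase, and the interaction of 1.22 (SE 0.34) did not pass (adjusted p = 0.515, edgeR). TSA1, the main cytosolic peroxiredoxin gene, was at 82.4, 85.0 and 102 CPM without and 118, 123 and 123 CPM with metformin in stationary cultures. Its interaction was 0.49 (SE 0.14, adjusted p = 0.515).

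Of the 35 tested genes of thioredoxin, glutathione and peroxide defence, 25 had a positive interaction and 7 of these had an unadjusted p under 0.05, against 185 of 6097 (3.03%) over all genes. The median was 0.18 beside 0.01 for all genes tested. CCP1, cytochrome c peroxidase, had an interaction of 0.65 (SE 0.25), SOD1, the copper-zinc superoxide dismutase, 0.47 (SE 0.18), and GRX3, a glutaredoxin that also acts in iron sensing, 0.26 (SE 0.10). None of these 3 passed the adjusted test. The close paralogs of the leading genes did not share their values. TRR2, the mitochondrial thioredoxin reductase, had an interaction of -0.01 (95% interval -0.33 to 0.32), GPX1 -0.23 (-1.33 to 0.87) and HYR1, a peroxide sensor that signals to Yap1, -0.04 (-0.39 to 0.30). YAP1 itself stood at -0.05 (-0.29 to 0.18) and the catalase gene CTT1 at -0.24 (SE 0.64). Summed over the list, levels in stationary cultures were 4282 to 4799 CPM without and 4423 to 5804 CPM with metformin, which overlap.

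YLR108C, an uncharacterised gene, was the third gene to pass in stationary cultures. It stood at 27.3, 28 and 27.7 CPM without and 51.5, 41.6 and 48.5 CPM with metformin there, and at 24.6, 28, 29.5 and 26.7 CPM without and 34.8, 27.6, 27.7 and 26.9 CPM with it in exponential cultures. The stationary groups were apart and the exponential groups overlapped, with a single exponential library with metformin above the rest. Its interaction of 0.66 (SE 0.15) had an adjusted p of 0.266 by edgeR. The 3 stationary calls are 0.0492% of the genes tested. Same-numbered stationary samples deviated together in pairs 2 and 3 (correlations of 0.53 and 0.53) and less so in pair 1 (0.16). With replicate number as a block there were 17 stationary calls, 15 higher and 2 lower, with TRR1, GPX2 and YLR108C among them. With the 6 stationary libraries fitted alone there were 0, beside 338 genes at an unadjusted p under 0.05. DESeq2 gave 47, limma-voom gave 7, and leaving out stationary library 3 without metformin gave 21. TRR1 passed in stationary cultures whichever single library was left out. GPX2 and YLR108C no longer passed when exponential untreated library 1, 2 or 4, exponential metformin library 3, stationary untreated library 1 or 2, or stationary metformin library 1 or 3 was left out, and GPX2 also failed without exponential metformin library 2.

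**Figure D2:**
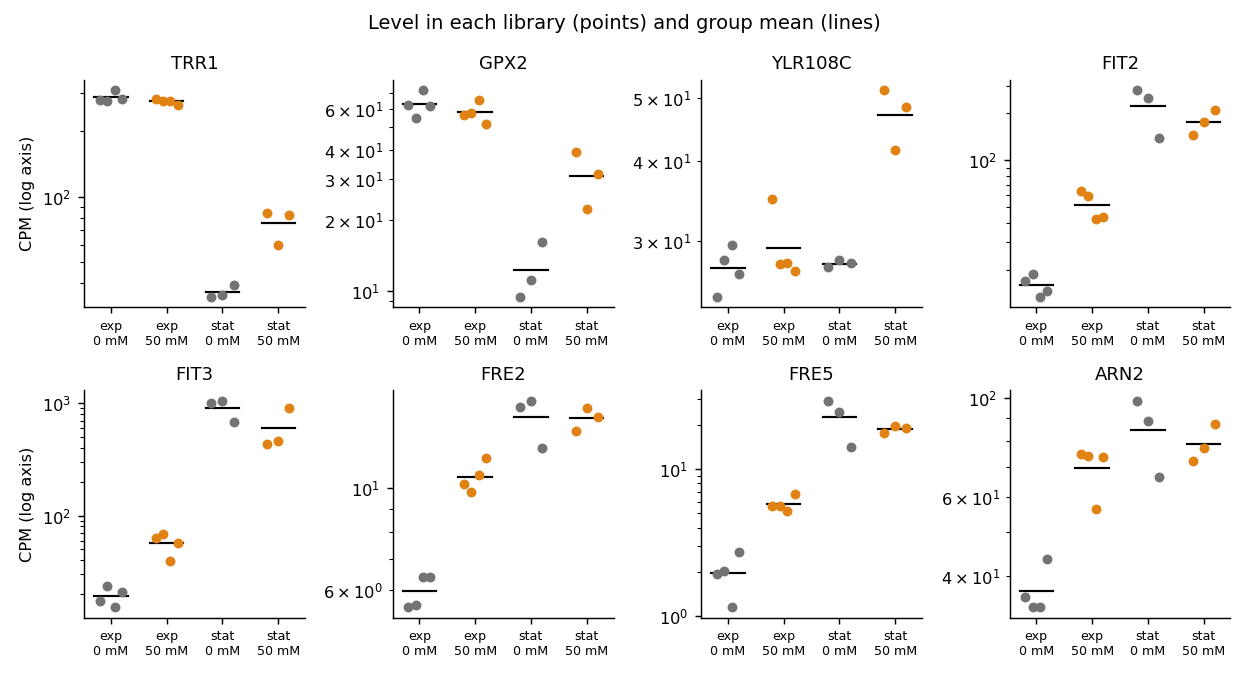
Levels of 8 genes in each library (points, CPM on a log axis) with the group means (lines), for exponential (exp) and stationary (stat) cultures at 0 and 50 mM metformin. TRR1, GPX2 and YLR108C separate by metformin in stationary cultures, and FIT2, FIT3, FRE2, FRE5 and ARN2 separate by metformin in exponential cultures.

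The negative side was led by iron uptake genes. FIT2, which codes for a cell wall mannoprotein that holds iron-loaded siderophores, stood at 16.9, 18.9, 13.5 and 14.6 CPM without and 63.8, 59.3, 42.0 and 43.6 CPM with metformin in exponential cultures. In stationary cultures it was 281, 252 and 139 CPM without and 145, 176 and 210 CPM with metformin. The groups were apart in the exponential phase and overlapped in the stationary phase. The exponential effect was 1.71 (SE 0.21, adjusted p = 0.00512, edgeR), and the interaction of -2.05 (SE 0.32, 95% interval -2.74 to -1.36) missed the threshold with an adjusted p of 0.0579. FIT2 was 14.0-fold higher in stationary than in exponential cultures without metformin and 3.39-fold higher with it.

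FIT3, a gene of the same kind of protein, was at 17.3, 23.8, 15.2 and 20.7 CPM without and 63.5, 68.2, 39.7 and 56.6 CPM with metformin in exponential cultures. Stationary cultures held 1012, 1051 and 681 CPM without and 435, 462 and 908 CPM with metformin. Again the exponential groups were apart and the stationary groups overlapped. The interaction was -2.17 (SE 0.38, 95% interval -2.98 to -1.36, adjusted p = 0.0900, edgeR). FIT1, the remaining member of the family, had an interaction of -0.07 (95% interval -0.51 to 0.37).

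The ferric reductase genes FRE2 and FRE5 followed. FRE2 stood at 5.51, 5.57, 6.41 and 6.41 CPM without and 10.2, 9.80, 10.7 and 11.6 CPM with metformin in exponential cultures, and at 14.9, 15.4 and 12.2 against 13.3, 14.9 and 14.2 CPM in stationary cultures. FRE5 stood at 1.94, 2.03, 1.15 and 2.73 CPM against 5.59, 5.62, 5.21 and 6.77 CPM in exponential cultures, and at 29.1, 24.3 and 14.2 against 17.7, 19.8 and 18.9 CPM in stationary cultures. For both genes the groups were apart in the exponential phase and overlapped in the stationary phase. The interaction was -0.83 (SE 0.14, adjusted p = 0.0900) for FRE2 and -1.83 (SE 0.35, adjusted p = 0.114) for FRE5, neither of which passed in edgeR.

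ARN2, a transporter of the siderophore triacetylfusarinine C, was at 35.9, 34.1, 33.9 and 43.7 CPM without and 74.6, 74.0, 56.4 and 73.8 CPM with metformin in exponential cultures. Stationary cultures held 98.4, 88.7 and 66.6 CPM without and 72.3, 77.1 and 87.5 CPM with metformin. The pattern of overlap was that of the FIT genes, and the interaction was -1.02 (SE 0.20, adjusted p = 0.114, edgeR). In the exponential phase all 5 of these genes passed at an adjusted p under 0.05, with effects of 0.82 to 1.71, among the 6 genes (0.0984% of those tested) that did so. FRE2 and FIT2 passed there whichever single library was left out, and the other 3 did not. FRE5 no longer passed without exponential untreated library 1 or 2 or exponential metformin library 1, 2 or 4, and ARN2 failed without any of these or exponential untreated library 3. FIT3 failed without any of those 6, exponential untreated library 4 or stationary untreated library 1 or 2. The interaction passed in 7 of 27 alternative fits for FIT2, in 5 for FIT3 and in 2 each for FRE2, FRE5 and ARN2. All 5 passed with DESeq2 (adjusted p 9.7e-07 to 0.0039) and without stationary library 3 of the untreated group (0.0052 to 0.021). With other libraries left out the adjusted p reached 0.347 for FIT2 and 0.555 for ARN2, and with limma-voom it was 0.0918 for FIT2 and 0.214 for ARN2. That library had lower levels of these iron genes than the other 2 of its group, 139 against 281 and 252 CPM for FIT2. Without both exponential libraries numbered 3 the interaction was -2.07 for FIT2, -2.22 for FIT3, -0.86 for FRE2, -1.68 for FRE5 and -1.07 for ARN2, with adjusted p-values of 0.0804 to 0.181.

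The letters GCACCC, or GGGTGC on the other strand, are the core of the site that Aft1 recognises, and they are shown in capitals in upstream stretches of 4 of these genes from R64, each read in the direction of the gene.
FIT2 (chrXV:1059231-1059430, plus strand, 300 to 101 bases before the start codon): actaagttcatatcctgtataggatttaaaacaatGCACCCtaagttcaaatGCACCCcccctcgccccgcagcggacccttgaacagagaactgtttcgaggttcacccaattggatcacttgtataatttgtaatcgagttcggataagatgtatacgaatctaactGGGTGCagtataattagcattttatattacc
FIT3 (chrXV:1061156-1061355, minus strand, 300 to 101 bases before the start codon): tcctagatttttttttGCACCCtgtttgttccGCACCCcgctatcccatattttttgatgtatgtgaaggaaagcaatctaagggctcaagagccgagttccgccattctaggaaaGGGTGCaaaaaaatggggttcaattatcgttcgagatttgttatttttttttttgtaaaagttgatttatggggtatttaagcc
FRE2 (chrXI:11627-11686, minus strand, 460 to 401 bases before the start codon): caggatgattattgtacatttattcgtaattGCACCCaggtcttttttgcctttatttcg
ARN2 (chrVIII:10634-10693, minus strand, 480 to 421 bases before the start codon): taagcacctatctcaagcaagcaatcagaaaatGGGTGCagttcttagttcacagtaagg
Within 500 bases FIT2 held 5 such cores, FIT3 and FRE5 3 each, and FRE2 and ARN2 1 each. The core occurred in 457 of 5995 windows (7.62%) and in 27 of the 34 windows of the iron list (79.4%), a list made up of genes known to be under Aft1 or Aft2. FIT1, whose interaction was near 0, also held 3 cores.

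FIT2, FIT3 and FRE5 are neighbours on chromosome XV, with FRE3 and YOR381W-A just before them. FIT3 and FRE5 are read in opposite directions from a shared stretch of 508 bases that holds 3 of the cores. The metformin effect in exponential cultures was 0.43 (SE 0.12) for FRE3 and 0.02 (SE 0.18) for YOR381W-A, against 1.71, 1.56 and 1.57 for FIT2, FIT3 and FRE5. On the other side, YOR385W had -0.09 (SE 0.25). YOR387C, further along, had an interaction of -3.53 (SE 0.95), but its level was under 1 CPM in all libraries.

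**Figure D3:**
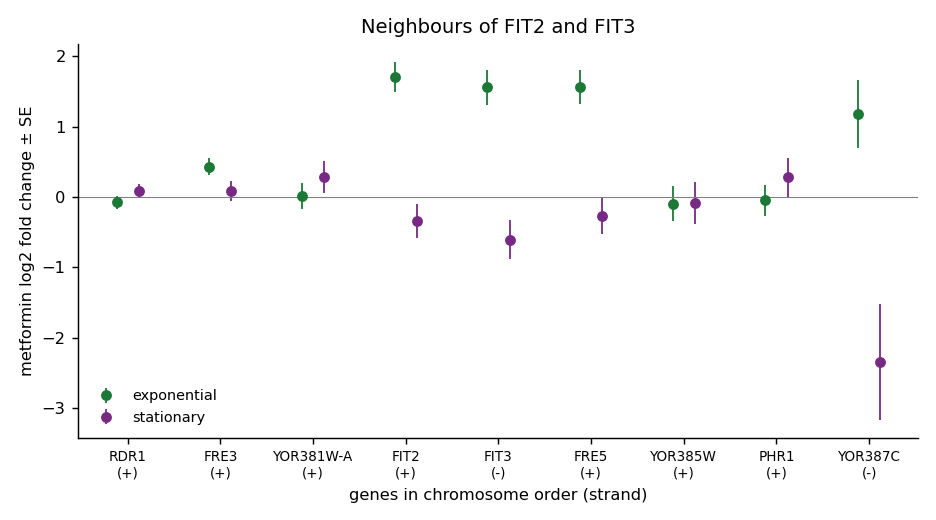
Metformin log2 effect with its SE (y) for the genes around FIT2 and FIT3 in chromosome order, with the strand below each name, in exponential and stationary cultures. FIT2, FIT3 and FRE5 lie between 1.56 and 1.71 in exponential cultures and between -0.61 and -0.26 in stationary cultures, and YOR387C, under 1 CPM, has wide errors.

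Of the 34 tested genes of the iron list, 26 had a negative interaction and 10 of these had an unadjusted p under 0.05, against 158 of 6097 (2.59%) over all genes. The median interaction was -0.19 (-0.09 without stationary untreated library 1 and -0.34 without stationary untreated library 3), the median effect 0.26 in exponential and 0.01 in stationary cultures. Among further members, TIS11, which directs messages of iron-using proteins to decay, had an interaction of -1.0 (SE 0.34), ARN1 -0.70 (SE 0.27), the enterobactin transporter gene ENB1 -0.66 (SE 0.24) and FRE1 -0.58 (SE 0.20). FET3 and FTR1, which form the high-affinity iron oxidase and permease, had -0.35 (SE 0.25) and -0.13 (SE 0.34). None of these 6 passed the adjusted test. ISU2, a scaffold for iron-sulfur cluster assembly, went the other way. It stood at 11.4, 11.5 and 11.3 CPM without and 24.5, 16.6 and 22.3 CPM with metformin in stationary cultures, and its interaction was 0.86 (SE 0.21, adjusted p = 0.414, edgeR). Summed over the list, exponential cultures held 1635 to 1845 CPM without and 2081 to 2322 CPM with metformin, which do not overlap, and stationary cultures held 2636 to 3982 and 2860 to 3520 CPM, which do.

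ADY2, an acetate transporter gene, was the sixth gene that passed in exponential cultures. It stood at 0.773, 0.837, 0.596 and 0.631 CPM without and 1.38, 1.12, 1.69 and 1.4 CPM with metformin in exponential cultures. In stationary cultures it stood at 984, 941 and 759 CPM without and at 1613, 1296 and 1824 CPM with metformin. The groups were apart in both phases. The effects were 0.98 (SE 0.16) in exponential and 0.82 (SE 0.16) in stationary cultures, and the stationary one did not pass (adjusted p = 0.0921, edgeR). The interaction of -0.16 had a 95% interval of -0.65 to 0.32, so a difference of up to 0.65 in size lies within it. The exponential call was lost without any single exponential untreated library, without exponential metformin library 1, 3 or 4, without stationary untreated library 1 or 2, without stationary metformin library 1, and without both exponential libraries numbered 3. On the scale of CPM the metformin difference was 0.686 in exponential and 683 in stationary cultures, so the log2 scale and the linear scale gave different answers for this gene.

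Other named genes did not pass the adjusted test of the interaction. On the positive side, MPC2, a subunit of the mitochondrial pyruvate carrier, was at 45.0, 40.0 and 39.6 CPM without and 68.5, 61.2 and 64.4 CPM with metformin in stationary cultures, and at 231, 229, 191 and 225 against 243, 228, 169 and 194 CPM in exponential ones. Its interaction was 0.71 (SE 0.16, adjusted p = 0.361, edgeR). ERP3, of the p24 family of proteins in early secretory transport, had 0.53 (SE 0.10, adjusted p = 0.114). MFA2, which codes for the mating pheromone a-factor, was at 459, 442, 503 and 448 CPM without and 406, 433, 408 and 292 CPM with metformin in exponential cultures, and at 25.4, 32.3 and 38.1 against 49.2, 41.9 and 64.7 CPM in stationary ones. The groups were apart in both phases and in opposite directions, with an interaction of 0.97 (SE 0.24, adjusted p = 0.420). PRY2, which codes for a secreted sterol-binding protein, had 0.88 (SE 0.23) and EMI1 0.60 (SE 0.16), both with an adjusted p of 0.515.

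YER138W-A had the highest value of the positive named genes, 1.92 (SE 0.36, adjusted p = 0.107, edgeR), on low levels. In stationary cultures it was at 0.217, 0.124 and 0.246 CPM without and 0.699, 0.607 and 0.660 CPM with metformin, and in exponential cultures at 13.2, 10.9, 10.4 and 11.2 against 12.9, 10.4, 9.28 and 6.98 CPM. The stationary groups were apart and the exponential groups overlapped. It lies near a Ty1 element on the opposite strand, and the strand setting of the counting is not given in the sources used here, so reads of either cannot be told apart.

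On the negative side, GND1, a dehydrogenase of the pentose phosphate pathway that makes NADPH, was at 40.3, 39.3 and 37.4 CPM without and 25.8, 29.3 and 30.2 CPM with metformin in stationary cultures. In exponential cultures it was at 666, 620, 664 and 657 CPM without and 641, 695, 614 and 644 CPM with it. The stationary groups were apart and the exponential groups overlapped, and the interaction was -0.45 (SE 0.11, adjusted p = 0.414, edgeR). SER3, which starts serine synthesis, was at 174, 152 and 81.7 CPM without and 52.4, 57.3 and 84.4 CPM with metformin in stationary cultures, with an interaction of -1.08 (SE 0.30, adjusted p = 0.515). Its stationary groups overlapped through library 3 of each. FYV7, an rRNA processing factor gene, had -0.72 (SE 0.20), SLK19, a kinetochore and spindle protein gene, -0.52 (SE 0.15), and ATR2, at 0.231 to 6.13 CPM, -2.08 (SE 0.61). For ATR2 the exponential metformin library 3, at 1.86 CPM, lay above the other 3 of its group (0.463 to 0.993 CPM), and without both exponential libraries numbered 3 its interaction was -1.59.

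**Figure D4:**
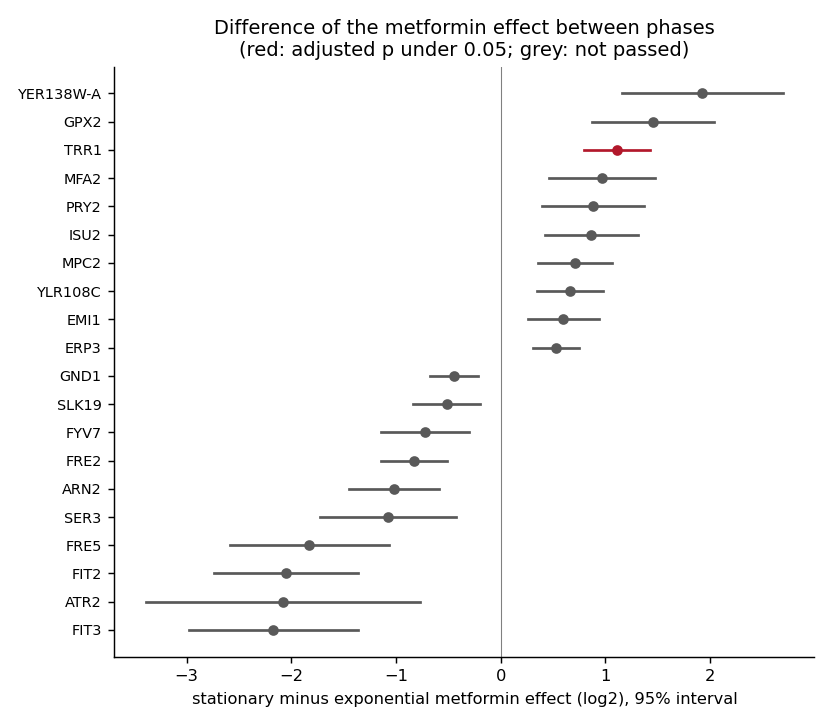
Interaction (stationary minus exponential log2 metformin effect, x) with its 95% interval for the 10 positive and 10 negative named genes. The TRR1 interval, 0.80 to 1.43, belongs to the single gene that passed the adjusted test (red). The genes were chosen by lowest p, so the unadjusted intervals of the other 19 miss 0 by that choice.

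Gene lists were described by counts and medians, with no test of a list. Heat shock chaperones had a median interaction of 0.39 (0.25 without exponential untreated library 1 and 0.60 without exponential metformin library 1), with median effects of -0.11 in exponential and 0.31 in stationary cultures. Of 27 tested members 26 were positive, against 3136 of 6097 over all genes, and 4 had an unadjusted p under 0.05, against 3.03% over all genes. SSA2, an abundant Hsp70 chaperone gene, had 0.83 (SE 0.26), SSA1, its close relative, 0.82 (SE 0.33), HSC82, a Hsp90 gene, 0.40 (SE 0.18) and AHA1, a Hsp90 cochaperone gene, 0.49 (SE 0.21). SSA1 and SSA2 are near-identical, so their reads can be split or lost. SSA4, with the highest value of the list at 1.16, had an SE of 1.05. Summed levels were 5592 to 7767 CPM without and 7104 to 10139 CPM with metformin in stationary cultures, and 11754 to 17800 and 11232 to 17740 CPM in exponential ones, and the groups overlapped in both phases.

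All 17 tested genes of the tricarboxylic acid cycle had a positive interaction, against 51.4% over all genes, with a median of 0.19 and a range of 0.01 to 0.50. The median was 0.09 without exponential untreated library 2, and it was also lower by over 1.5-fold without exponential metformin library 2 or 3 or stationary metformin library 3. SDH3, a membrane subunit of succinate dehydrogenase, had 0.50 (SE 0.17) and LSC2, a subunit of succinyl-CoA ligase, 0.40 (SE 0.12), and 4 of the 17 had an unadjusted p under 0.05, against 3.03% over all genes. All 7 tested protein genes of the mitochondrial genome were positive too, and none had an unadjusted p under 0.05. Their median was 0.33 (0.17 without stationary metformin library 3 and 0.18 without stationary untreated library 1). By plain library totals, mitochondrial 15S rRNA stood at 1282 CPM in exponential metformin library 4 and at 167 to 251 CPM in the other exponential libraries. Without that library the median was 0.24. The cause of its high 15S level was not tested. Mitochondrial ribosomal protein genes had a median of 0.07, with 59 of 70 positive. The nuclear genes of oxidative phosphorylation had a median of 0.03, with 21 of 37 positive, and it was below 0 when 1 of several libraries was left out (-0.10 without stationary metformin library 3).

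Of 73 ribosome biogenesis genes, 71 had a negative interaction, with a median of -0.17, and 66 had a positive effect in exponential and a negative effect in stationary cultures, against 1499 of 6097 over all genes. The median was -0.08 without stationary metformin library 3 and -0.30 without stationary metformin library 2, and it also moved by over 1.5-fold without exponential metformin library 1 or 2 or stationary untreated library 1 or 3. None had an unadjusted p under 0.05, and the summed levels overlapped between groups in both phases. Cytosolic ribosomal protein genes had a median of -0.05, with 105 of 139 negative, and the median was 0.08 without stationary untreated library 3. Purine and one-carbon genes had a median of -0.24 (-0.11 without stationary untreated library 1 and -0.38 without stationary untreated library 3), with 18 of 20 negative. SHM2, which makes one-carbon units from serine, had -0.49 (SE 0.21).

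Hexose transporters and sensors had a median of -0.34, with 15 of 23 negative and 6 at an unadjusted p under 0.05, against 2.59% over all genes. The median was -0.02 without exponential metformin library 1, -0.10 without exponential untreated library 3 or stationary untreated library 1, -0.21 without stationary untreated library 2 and -0.13 without both exponential libraries numbered 3. These 6 (HXT17, HXT13, HXT15, HXT10, GAL2 and HXT8) had mean levels under 5 CPM. HXT17 was at 1.75 CPM in exponential metformin library 3 and at 0.322 to 0.604 CPM in the other 3 of that group, and its interaction of -2.66 was -1.74 without both libraries numbered 3. The abundant HXT3 had 0.06 (SE 0.30) and HXT1 0.11 (SE 0.20). The meiosis and sporulation list had a median of -0.33, led by SPS2, a spore wall gene, at -4.49 (SE 1.18) and a mean level of 0.377 CPM. SPS2 was at 0.546 CPM in exponential metformin library 3 and under 0.1 CPM in the other 3 of that group, and its interaction was -3.26 without both libraries numbered 3.

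Of 11 histone genes 10 had a positive interaction, among them HTB2 at 0.33 (SE 0.10) and CSE4, the centromeric variant, at 0.36 (SE 0.12). Of 22 genes of inositol and phospholipid synthesis 19 were, led by INO1, the first enzyme of inositol synthesis, at 0.67 (SE 0.20). Of 25 mating genes 17 were, with AGA2, a subunit of the a-agglutinin, at 0.54 (SE 0.17) and the pheromone receptor gene STE2 at 0.38 (SE 0.13). Ty retrotransposon genes, whose copies share reads, had a median of 0.24 with 40 of 46 tested positive (0.09 without stationary metformin library 3 and 0.39 without stationary untreated library 3), and the median effects were 0.15 in exponential and 0.42 in stationary cultures.

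**Figure D5:**
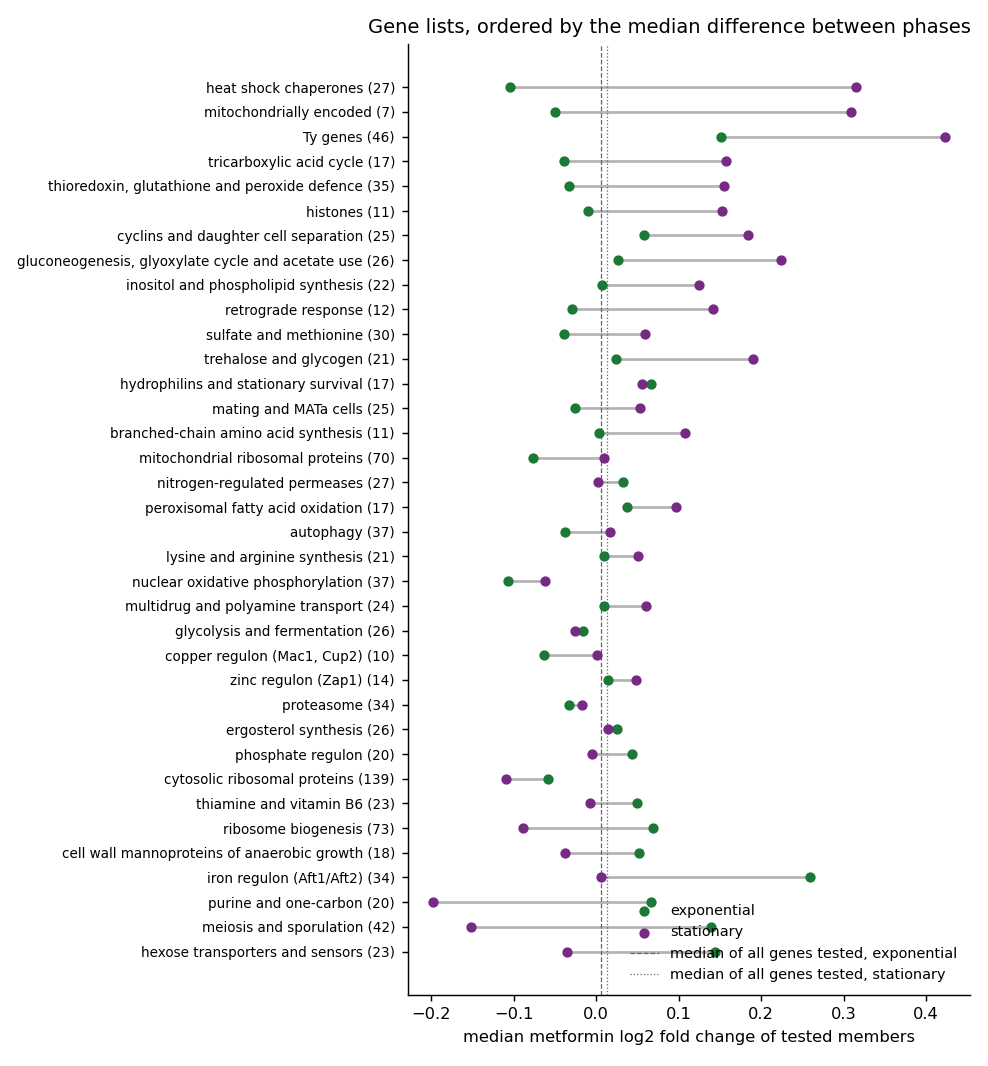
Median log2 metformin effect of the tested members of each list in exponential and stationary cultures, ordered by the median interaction, with the number of members in brackets. Heat shock chaperones at the top lie at -0.11 and 0.31, and the iron list near the bottom lies at 0.26 and 0.01.

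List medians depend on the scaling. TMM factors were 1.35 to 1.52 in exponential and 0.49 to 0.74 in stationary libraries, and with plain library totals the median of all genes shifted by -0.17. Relative to that shift the medians were 0.36 for heat shock chaperones, 0.16 for peroxide defence, 0.17 for the tricarboxylic acid cycle, -0.19 for the iron list and -0.15 for ribosome biogenesis. As fitted with library totals they were, in this order, 0.20, -0.007, 0.007, -0.35 and -0.31. Medians of histones (-0.01), inositol and phospholipid (-0.05), mating (-0.05) and mitochondrial ribosomal protein genes (-0.10) fell below 0. Those of mitochondrially encoded (0.16) and Ty genes (0.04) stayed above it. The counts of positive and negative members above are for TMM and were not made with library totals. Without both exponential libraries numbered 3 the medians were 0.39 for heat shock chaperones, 0.19 for peroxide defence, 0.21 for the tricarboxylic acid cycle, -0.19 for the iron list, -0.21 for ribosome biogenesis, -0.27 for purine and one-carbon genes and -0.23 for meiosis and sporulation.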

How the data were processed

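The members, gene lists and rule for named genes were chosen with earlier results of these data known. The deposited table gives raw read counts for each feature in all 14 libraries. The submitters' processing notes name the aligner STAR, the counter HTSeq and SAMtools, and no version, build or strand setting was found in the sources used here. Each of the 6470 identifiers had a match among RefSeq's R64 locus tags, from which names and sequences were taken. Summary rows of the counter, 6.12% to 10.1% of reads, were left out of library sizes and tests.

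After filterByExpr (minimum count 10, minimum total 15) and TMM scaling, counts were modelled by edgeR 4.0.16 (R 4.3.3) with its quasi-likelihood test, legacy=FALSE, 4 groups and no block, over all 14 libraries. The two-sided p-values were adjusted by Benjamini-Hochberg over all 6097 genes, with a threshold of 0.05. SEs come from the test statistic, and CPM use the TMM-scaled library sizes. The test was checked on simulated counts drawn independently for each library. That check does not cover deviations shared between libraries, such as those of same-numbered samples. No pair of libraries agreed within sampling noise, and the biological coefficient of variation was 13.5% to 17.2% per group.

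Named genes were those past the threshold in any of the 3 contrasts, filled to 10 per direction of the interaction by lowest p among genes with at least 5 CPM in a group, the 2 lowest p per list, and others picked afterwards as paralogs, neighbours or list members. Motifs were searched in 500 bases before start codons with Biopython 1.88. DESeq2 1.42.0, limma 3.58.1 (voom), other scalings, filters and blocks and leaving out each library were alternatives. Leaving out both exponential libraries numbered 3 was chosen after seeing the data.

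Replicate numbers come from the titles. In stationary cultures the deviations of same-numbered samples from their group means correlated at 0.16, 0.53 and 0.53 over 5238 genes, so by rule the numbers were taken to pair these samples. The untreated sample correlated best with the metformin sample of its own number in pairs 2 and 3, but not in pair 1. The main fit did not use this pairing. A block within phase, which also pairs the exponential samples, gave interaction adjusted p-values (edgeR) of 0.0480 for TRR1, 0.0783 for FIT2 and 0.0903 for GPX2. With it 581 genes had an unadjusted p under 0.05. The table's columns number the third pair 5.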

Additional observations from a re-analysis of the deposited data

Results flagged for a closer look

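The metformin effect on TRR1 differed between phases by 1.11 on the log2 scale (adjusted p = 0.0180, edgeR), higher in 3 of 3 stationary libraries with metformin than in any stationary library without it.

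Among named genes, 17 of 176 sets of 4 exponential libraries had a single library far from the other 3, where chance gives about 1 in 20. In the untreated group, library 3 was apart for TRR1 (308 CPM, others 275 to 279), MPC2 (191 CPM, others 225 to 231) and PRY2 (96.4 CPM), library 4 for FYV7 (5.49 CPM), library 2 for ATR2 (0.231 CPM) and SAM3 (85.4 CPM), and library 1 for ADH3 (277.6 CPM). With metformin, library 3 was apart for ARN2 (56.4 CPM, others 73.8 to 74.6), SPS2 (0.546 CPM), GCV1 (93.8 CPM) and CYC1 (37.1 CPM). Library 1 with metformin was apart for YLR108C (34.8 CPM), TPS1 (351.8 CPM) and ATG17 (10.5 CPM), library 2 for CTR3 (1.63 CPM), and library 4 for YOL103W-B (11.5 CPM) and ANT1 (34.5 CPM). Of these flags 7 fell on the libraries numbered 3.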

How the results depend on the processing

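The interaction count of 1 remained 1 with DESeq2 size factors, legacy dispersion, no filter, a CPM filter, limma-voom and either replicate block. It became 2 with upper-quartile scaling, TMM within each phase and robust dispersion (TRR1 and FIT2), 2 with library totals (FIT2 and FIT3), 12 with DESeq2 (6 in each direction), 0 without both exponential libraries numbered 3, where 226 genes had an unadjusted p under 0.05, and 0 to 16 when each library was left out. The 16 came without stationary library 3 of the untreated group, and where the count was 0 there were 282 to 379 genes at an unadjusted p under 0.05. In all 27 alternatives TRR1 kept its direction (0.92 to 1.26) and it passed in 16. The exponential count of 6 was 3 with the replicate block within phase (FRE2, FIT2 and FRE5, without FIT3, ARN2 and ADY2) and 2 to 6 when each library was left out. The lowest, 2, came without untreated library 1 or 2 or metformin library 1 or 4. The stationary count of 3 was 17 with the block within phase, 5 with the block across phases, 5 with TMM within phase, 5 with library totals, 7 with limma-voom, 47 with DESeq2 (35 higher, 12 lower), 6 without both exponential libraries numbered 3, 0 with stationary libraries alone and 1 to 21 when each library was left out. Exponential same-numbered samples correlated at 0.50, -0.09, 0.93 and 0.24. Not every pair passed 0.1, so by rule the exponential numbers were not taken as a pairing. In pairs 1 and 3, however, the untreated sample correlated best with the metformin sample of its own number. The sign of the interaction turned with library totals for PRE9 (-0.0746), IZH2 (-0.0557) and ZAP1 (-0.0424), without both exponential libraries numbered 3 for ADY2 (0.0191), and as a difference of CPM differences for LYS9 (-2.47), POX1 (9.95) and ADY2 (682.3). The causes were not tested. Of the 88 named genes' other results under alternatives, 29 newly passed the threshold, 11 no longer did and 2415 were labelled the same. For the difference of CPM differences, which has no test, that label meant only an unchanged sign. Any result with no adjusted p was also labelled the same.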
